A study of Homo sapiens with 4 samples.

Results

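Epithelial cells are sealed to each other and given an apical side by tight junctions, polarity complexes and desmosomes. The genes described here encode these structures. They are 40 symbols, chosen by name with earlier results of these data known. They cover claudins, other junction membrane proteins, tight junction plaque proteins, Crumbs and Par polarity proteins, desmosomal cadherins and desmosomal plaque proteins. Probes carrying the symbol were found for 38 of the 40, among 16592 genes tested. CLDN23 and PKP4 were not analysed here. The 38 genes had 43 probes, and CLDN1, CLDN14, CLDN15 and TJP3 had more than 1.

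Transcripts were measured on single-dye Toray 3D-Gene arrays in Panc1 cells, an established line derived from a human carcinoma of the pancreatic duct. The resistant group held 3 cloned derivatives, Panc1-GR1, Panc1-GR3 and Panc1-GR4, with 1 array each. Per the labels they came from 1 selection of Panc1-Pt, in which gemcitabine, a deoxycytidine analogue, was raised stepwise over 2 months to 30 ng/ml before limiting dilution. They were compared with the untreated parental line, Panc1-Pt, with 1 array, and all cells grew in medium with 10% serum. Another label text numbers the clones differently, and the sample titles were followed. The comparison asks which transcripts set the resistant clones apart from the line they came from. The number of arrays limits the precision, because the parental line has no spread of its own. The p-values rest on the spread among the 3 clones, each gene's own being drawn toward that of all tested probes. Whether the clones were kept in drug up to RNA isolation is not given in the sources used here.

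Claudins are membrane proteins whose extracellular loops form the seal of the tight junction, and their combination sets which ions pass between cells. Their tails bind PDZ domains of the ZO scaffold proteins, which cingulin and its relative tie to the cytoskeleton. The Crumbs and Par complexes mark the apical membrane next to this belt. Desmosomes lie below it, where desmogleins and desmocollins bridge the cells and plakoglobin, plakophilins and plakins attach them to keratin filaments. Pancreatic ducts, and many carcinomas that derive from them, carry all these structures.

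Levels are given as signal, in intensity units above the blank spots of the array after quantile normalization. Differences are given on the log2 scale as clones minus parental, with the standard error of limma's fit for 3 clones against 1 parental array. A gene is said to have risen or fallen only where limma's adjusted p, over all tested probes, was under 0.05. The 38 genes, each by its brightest probe, lay above the blank-spot limit on all 4 arrays. That limit, the blank mean plus 2 SD, was passed by 91.5% to 93.7% of the 24460 gene probes of an array. The epithelial label was checked with KRT7, KRT18, KRT19 and EPCAM, all above the limit on the 4 arrays, with log2 signals between 11.9 and 15.2. The endothelial markers VWF and CDH5 had log2 signals of 3.48 or less on every array. The summed signal of 3 immune markers was 36.9 to 45.1 in the clones and 101.5 in the parental line. Most of it was CD14, with a log2 signal of 5.05 to 5.39 in the clones and 6.61 in the parental line. CD14 did not pass limma's threshold, and its part in the results was not tested. CD3E had a log2 signal of 1.47 or less on every array. Fibroblast markers had 4 of 4 members above the limit on all arrays, with summed signals of 336.4 to 735.1 in the clones and 668.5 in the parental line. Of these, LUM was the brightest, with log2 signals of 7.33 to 9.14 over the arrays, and COL1A1 the dimmest, with 1.16 to 1.89.

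Of the 38 junction genes 1 fell in the resistant clones, TJP3, and 0 rose. Over all genes tested limma called 4.06%, of which 1.89% of genes were lower and 2.17% higher, so 1 of 38 (2.63%) is near the background. The median log2 difference was −0.16 over the 38 genes and −0.015 over all genes tested. The median over the 38 depended on the processing. It was −0.05 with limma's normexp correction, which uses the background column, and −0.04 after median scaling. With the authors' deposited values it was −0.04, and without normalization 0.0016. The median of all genes moved too. The median of the 38 minus that of all genes was −0.05, −0.09, −0.09 and −0.09 in these settings, against −0.15. All 3 clones lay below the parental array for 20 of the 38 genes and above it for 8, against 37.8% below and 35.3% above in all genes. An unadjusted p under 0.05 was reached by 12 genes, all lower in the clones. By that rule 31.9% of all genes were called, 15.1% lower and 16.8% higher, so the total of 12 (31.6%) is near the background. The split by direction is not, with 31.6% of the 38 lower and 0% higher. The list was chosen with earlier results of these data known, so this split is a description only. The 12 were CLDN3, CLDN4, CLDN7, CLDN11, F11R, MARVELD3, TJP3, CRB3, PARD6A, PARD6B, DSP and PPL. Of these, TJP3 passed the adjusted threshold. The total of 12 became 14 with normexp, 9 after median scaling, 9 with the deposited values and 7 without normalization. Over all genes the totals were 3060, 5162, 5057 and 4738 in these settings, against 5294. The split by direction was not counted there. The counts on either side of the parental array moved with the scaling, to 18 below and 10 above after median scaling and to 15 below and 13 above without normalization. In all genes these settings gave 32.8% below and 40.3% above, and 28.4% below and 42.7% above.

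**Figure D1:**
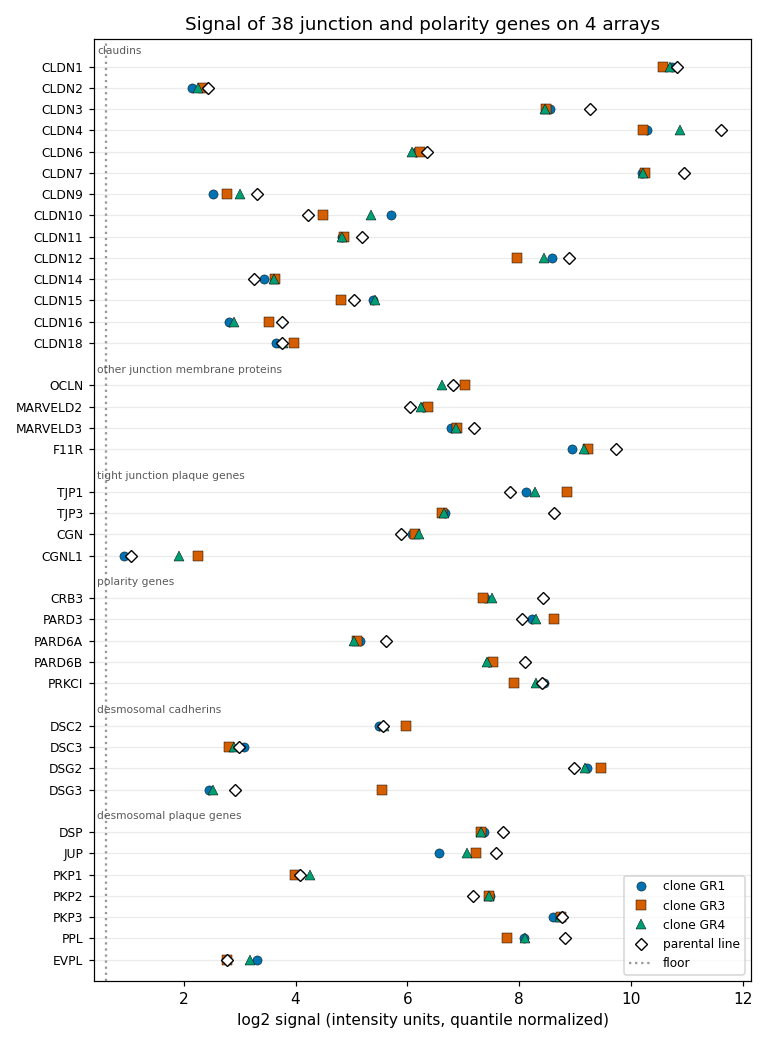
Signal of the 38 genes, grouped by role, as log2 intensity units on the x axis, with 1 point for each array and a dotted line at the floor of 0.61. The parental diamond lies to the right of all 3 clones for 20 genes, among them TJP3, CRB3, CLDN3 and CLDN7, and to the left of all 3 for 8.

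The sequence before a listed start of CRB3 and of CLDN7 is shown first. Both genes lay below the parental array in all 3 clones, though neither passed limma's adjusted threshold. Both windows were picked because they hold several copies of CAGGTG. This is an E-box letter string that repressors of the Snail and ZEB families are known to recognise. Whether such repressors bind there was not tested. TJP3 is shown as the gene that fell, and DSG2, chosen after its values were seen, as a gene with 2 copies whose clones all lay above the parental array. Each window holds the 250 bases before a start listed by RefSeq on GRCh38.p14, 5′ to 3′ on the gene's strand, and capitals mark CAGGTG or its reverse complement CACCTG. For CLDN7 the window is that of the second of its starts, and for TJP3 that of the first.
CRB3, chr19:6464021-6464270, plus strand: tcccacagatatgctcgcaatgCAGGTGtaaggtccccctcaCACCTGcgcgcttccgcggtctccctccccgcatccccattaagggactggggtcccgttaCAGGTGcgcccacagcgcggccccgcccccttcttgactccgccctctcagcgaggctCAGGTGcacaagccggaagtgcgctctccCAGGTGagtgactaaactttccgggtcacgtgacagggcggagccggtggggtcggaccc
CLDN7, chr17:7262479-7262728, minus strand: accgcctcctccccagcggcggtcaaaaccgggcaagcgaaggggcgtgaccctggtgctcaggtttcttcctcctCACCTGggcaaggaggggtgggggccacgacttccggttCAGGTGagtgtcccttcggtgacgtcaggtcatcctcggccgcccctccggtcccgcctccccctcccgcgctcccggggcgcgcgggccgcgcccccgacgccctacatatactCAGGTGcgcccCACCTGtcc
TJP3, chr19:3708134-3708383, plus strand: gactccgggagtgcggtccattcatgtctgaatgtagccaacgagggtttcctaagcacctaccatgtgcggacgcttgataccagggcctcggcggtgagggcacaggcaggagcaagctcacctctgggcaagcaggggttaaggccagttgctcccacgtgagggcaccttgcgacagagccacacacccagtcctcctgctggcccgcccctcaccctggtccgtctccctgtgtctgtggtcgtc
DSG2, chr18:31497927-31498176, plus strand: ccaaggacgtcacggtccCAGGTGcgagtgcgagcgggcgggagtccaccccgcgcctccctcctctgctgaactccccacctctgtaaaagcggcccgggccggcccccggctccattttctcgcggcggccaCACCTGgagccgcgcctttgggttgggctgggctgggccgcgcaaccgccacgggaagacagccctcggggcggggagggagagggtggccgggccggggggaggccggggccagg

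CRB3 held 5 matches, starting 228, 208, 147, 89 and 60 bases before the listed start, and the CLDN7 window held 4, at 174, 135, 20 and 9 bases. The window of the first CLDN7 start, chr17:7263214-7263463, held 0. These windows were picked for their matches, so their counts are a description only. The CRB3 window and this CLDN7 window lie inside the gene ranges RefSeq gives, which begin at 6463777 for CRB3 and reach 7263213 for CLDN7. Promoters were listed for 30 of the 40 genes, in 46 windows because 13 genes have more than 1 start. At least 1 match was found in 12 of these windows (26.1%), against 17.5% of the 35116 promoter windows of all genes, and the 12 belonged to 11 genes. At least 2 matches were found in 5 windows (10.9%, against 2.53% of all windows). At least 4 were found in 2 windows (4.35%, against 0.122%). These are the CRB3 and CLDN7 windows printed above, and 4 is the CLDN7 count, so that share is a description only. They are also among the 5. TJP3 had none in the window printed and 1 at its second start. DSP had 2 and JUP had 2 at its second start, both with clones below the parental array. DSG2, with 2, TJP1, with 1, and CLDN14, with 1, had clones above it by their brightest probes. OCLN, DSC2 and CLDN18 had matches too, with clones on both sides of it. No match was found for CLDN1, CLDN2, CLDN3, CLDN4, CLDN6, CLDN11, CLDN12, CLDN16 and PARD6A, with clones below it. The same held for CLDN10, MARVELD2 and CGN, with clones above it. Whether the matches bear on the signal was not tested. The string AACCNGTT, which Grainyhead-like factors are known to bind, was found on either strand in 1 window, that of CGN, against 1.49% of all windows. A match is a string of letters and not a measured binding site.

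TJP3 encodes ZO-3, a scaffold of the tight junction plaque that binds claudins and occludin. Its brightest probe had a signal of 102 in GR1, 98.5 in GR3 and 100.2 in GR4, against 392 in the parental line. The 3 clones lay within a log2 range of 0.05 of each other and were 3.91-fold below the parental array. The log2 difference was −1.97 ± 0.11 (SE, n = 3 clones and 1 parental array; limma adjusted p = 0.0442). This adjusted p was the smallest of all tested probes, so every call of the fit lay between 0.0442 and 0.05. TJP3 was also the 1 gene of the 38 at least 2-fold lower in all 3 clones, a rule that 3.6% of all genes met. Of the 38, 0 were 2-fold higher in all clones (3.66% of all genes). In bulk RNA, fewer cells with a transcript and less of it per cell cannot be told apart. The probe with the lowest mean over the 4 arrays fell too, with signals of 20.6, 17.9 and 21.5 in GR1, GR3 and GR4 against 53.7 in the parental line (log2 difference −1.43 ± 0.16, limma adjusted p = 0.0474). The remaining probe had 41.4, 36.1 and 44.3 in the clones and 43.0 in the parental line. There the clones lay on both sides of the parental array, with a log2 difference of −0.09 ± 0.17 (limma adjusted p = 0.758). Which TJP3 transcripts each probe detects is not given in the sources used here. The call was lost with the normexp correction (log2 difference −1.42, adjusted p = 0.0966), with no filter on dim probes (adjusted p = 0.0509) and without any 1 clone (adjusted p = 0.0755 to 0.217), while the difference without a clone stayed between −1.98 and −1.95.

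**Figure D2:**
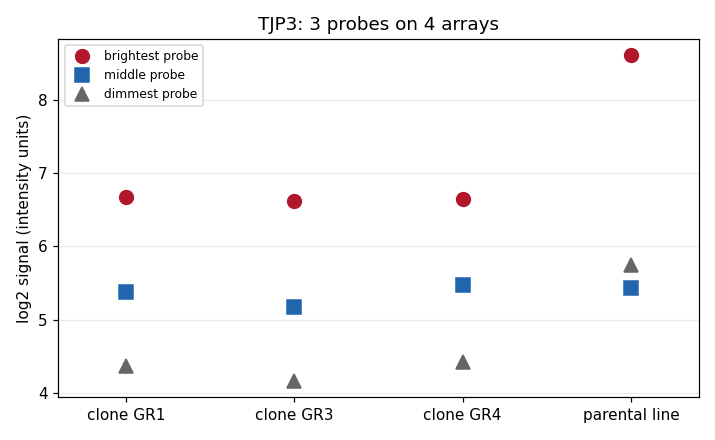
Log2 signal of the 3 TJP3 probes (y axis) on the 4 arrays. Probes are called brightest, middle and dimmest by their mean over the 4 arrays, although in the parental line the dimmest (5.75) lies above the middle one. The brightest and the dimmest are lower in all 3 clones than in the parental line, and the middle probe has 5.17 to 5.47 in the clones and 5.43 in the parental line.

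TJP1 encodes ZO-1, the related scaffold. Its signal was 279 in GR1, 459.6 in GR3 and 309.7 in GR4, against 228 in the parental line, so all 3 clones lay above the parental array and GR3 highest. The log2 difference of 0.58 ± 0.34 did not pass the test (limma adjusted p = 0.338). CGN, cingulin, had 67.3, 70.1 and 74.3 in GR1, GR3 and GR4 against 59.0 in the parental line (log2 difference 0.26 ± 0.12). The paralogue CGNL1 was dim, with 1.90, 4.79 and 3.76 against 2.08, and GR1 lay below the parental array while GR3 and GR4 lay above it. Within the tight junction plaque TJP3 fell, and the other 3 members had log2 differences of 0.26 to 0.65, none past the threshold.

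Claudins were measured for 14 genes, and 0 of them passed limma in either direction. Their median log2 difference was −0.28, with 10 genes below the parental array in all 3 clones and 2 above it. Of these 14, CLDN3, CLDN4 and CLDN7 were at least 1.5-fold below the parental array in every clone. That rule was met by 8.48% of all genes and by 6 of the 38, the others being TJP3, CRB3 and PPL, and 0 were 1.5-fold higher (10.1% of all genes).

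CLDN4, which with CLDN3 serves as a receptor for a clostridial enterotoxin, had a signal of 1249.5 in GR1, 1184 in GR3 and 1879 in GR4, against 3126 in the parental line. GR4 lay between the other clones and the parental array, and the log2 difference was −1.15 ± 0.33 (limma adjusted p = 0.125). CLDN3 had 376, 357 and 353 in GR1, GR3 and GR4 against 616 in the parental line. These clones were nearly level with each other, and the difference of −0.77 ± 0.11 was just short of the threshold (limma adjusted p = 0.0546). CLDN7 had 1174, 1212 and 1188 in GR1, GR3 and GR4 against 1981 in the parental line, a log2 difference of −0.73 ± 0.11 with clones within 0.05 of each other (limma adjusted p = 0.0544). When only probes above the limit on all 4 arrays were tested, where 13.4% of all genes passed, CLDN3, CLDN7, CRB3 and TJP3 passed (adjusted p = 0.0401, 0.0432, 0.0247 and 0.00889). The size of the CLDN3 and CLDN7 differences depended on the scaling. CLDN3 was −0.51 after median scaling (limma adjusted p = 0.103) and −0.47 without normalization (0.189), and CLDN7 was −0.46 (0.121) and −0.42 (0.183) under these settings. Over the 10 alternatives the adjusted p ran from 0.0401 to 0.217 for CLDN3 and from 0.0432 to 0.217 for CLDN7.

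CLDN1, needed for the skin's water barrier, had a bright probe with 1708, 1513 and 1665 in GR1, GR3 and GR4 against 1802 in the parental line. The log2 difference was −0.15 ± 0.13, and with median scaling, the authors' deposited values or no normalization it was 0.14 to 0.19. Its second probe was dim, with 9.70 to 12.1 in the clones and 17.7 in the parental line (log2 difference −0.67 ± 0.18, limma adjusted p = 0.114). CLDN12 had 382, 248 and 349 in GR1, GR3 and GR4 against 472 in the parental line, with GR3 lowest. CLDN6, a claudin of embryonic epithelia, had 67.3 to 74.6 in the clones and 81.9 in the parental line. CLDN11, known from myelin and Sertoli cells, had 28.4 to 29.1 in the clones and 36.5 in the parental line (log2 difference −0.35 ± 0.10, limma adjusted p = 0.136), and CLDN9, of the inner ear, 5.73 to 8.04 in the clones and 9.88 in the parental line.

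Of the remaining claudins, CLDN10, whose isoforms form cation or anion pores, had 52.2 in GR1, 22.6 in GR3 and 40.5 in GR4, against 18.6 in the parental line. GR1 and GR4 were over 2-fold above the parental array and GR3 close to it, so that the log2 difference of 0.97 ± 0.54 did not pass (limma adjusted p = 0.322). It was 1.31 without GR3, 0.70 without GR1 and 0.28 with the normexp correction. CLDN15, a cation pore of the intestine, had 41.6, 27.9 and 42.6 in GR1, GR3 and GR4 against 33.0 in the parental line, with GR3 again below the other clones. Its second probe had 11.9, 5.86 and 12.4 in these clones and 12.6 in the parental line. CLDN16, which the kidney uses to reclaim magnesium, had 6.99, 11.5 and 7.44 in GR1, GR3 and GR4 against 13.5 in the parental line. CLDN2, a cation and water pore, had 4.45 to 5.07 in the clones and 5.39 in the parental line. CLDN14 had 10.8 to 12.4 in the clones and 9.52 in the parental line, and by its second probe 6.19 to 8.45 against 8.39. CLDN18, of stomach and lung, had 12.6 to 15.7 in the clones and 13.6 in the parental line.

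Of the other membrane proteins of the tight junction, F11R, the adhesion molecule JAM-A, had 494 in GR1, 599 in GR3 and 568 in GR4, against 854 in the parental line. All clones lay below the parental array, with a log2 difference of −0.63 ± 0.16 (limma adjusted p = 0.107). OCLN, occludin, had 112, 130.4 and 98.3 in GR1, GR3 and GR4 against 113 in the parental line, which lay among the clones. MARVELD2, tricellulin, which closes the corners where cells meet, had 75.7 to 82.5 in the clones and 66.3 in the parental line (log2 difference 0.24 ± 0.12). MARVELD3 had 109.96 to 118 in the clones and 145 in the parental line (−0.34 ± 0.11, limma adjusted p = 0.157).

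**Figure D3:**
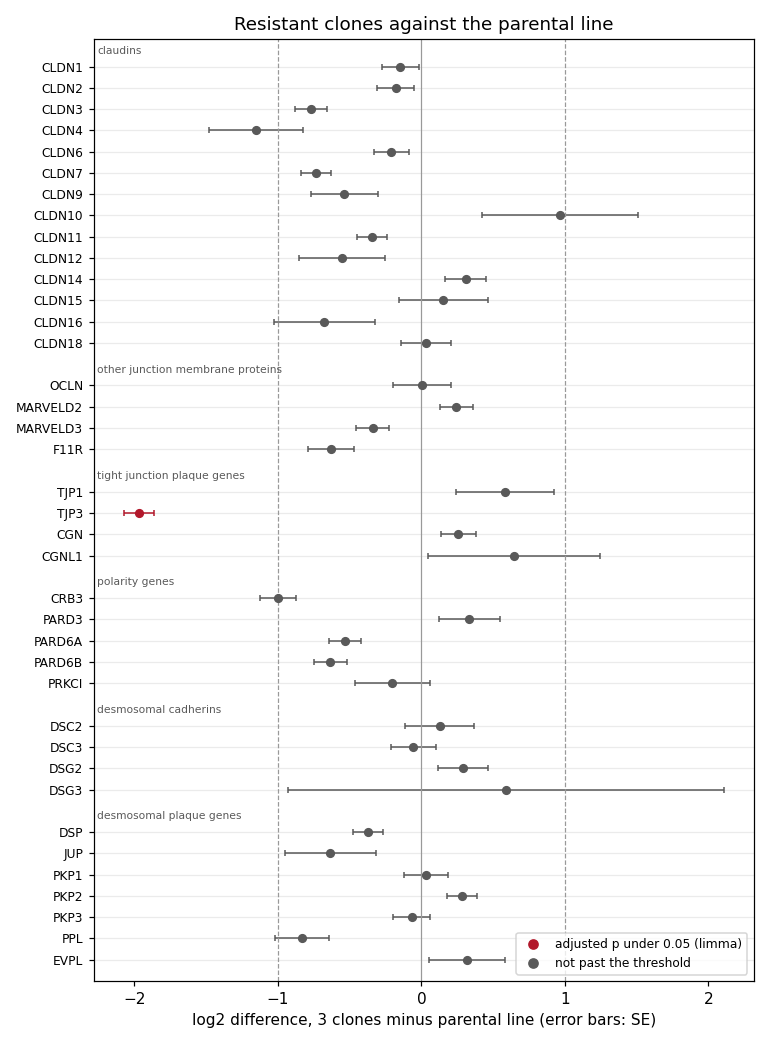
Log2 difference of each gene, 3 clones minus parental line (x axis), with the standard error of limma's fit as error bars and dashed lines at a 2-fold difference. TJP3 at −1.97 is the gene past the threshold, and the widest error bar is that of DSG3 (SE 1.52).

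Among the polarity genes, 0 of 5 passed the test and 3 lay below the parental array in all clones. CRB3, the Crumbs protein of most epithelia, had signals of 168 in GR1, 163 in GR3 and 183 in GR4, against 342 in the parental line. The clones differed little from each other, and the log2 difference of −1.0 ± 0.13 lay just short of the threshold (limma adjusted p = 0.0510). It passed under 2 of 10 alternatives, the mean of a gene's probes (adjusted p = 0.0492) and the filter on all 4 arrays given above. It did not pass under the others, with −0.67 under normexp (adjusted p = 0.271), −0.77 after median scaling (0.0787), −0.73 without normalization (0.0852) and an adjusted p of 0.0768 to 0.217 without 1 clone. PARD6A and PARD6B, adaptors of the Par complex, had log2 differences of −0.53 ± 0.11 and −0.64 ± 0.11 (limma adjusted p = 0.0837 and 0.0680). PARD6B had 175, 186 and 172 in GR1, GR3 and GR4 against 276 in the parental line, and PARD6A 33.0 to 35.4 in the clones and 49.3 in the parental line. The scaffold PARD3 had 300.3, 396 and 313 in GR1, GR3 and GR4 against 265 in the parental line, with all clones above it (log2 difference 0.33 ± 0.21). PRKCI, the atypical protein kinase C of the complex, had 346, 239 and 314 in these clones and 341 in the parental line. Its log2 difference of −0.20 ± 0.26 was 0.0337 after median scaling and 0.0763 without normalization.

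The desmosome genes had a median log2 difference of 0.03 over 11 genes, and 0 passed. PPL, periplakin, had 271 in GR1, 219 in GR3 and 276 in GR4, against 453 in the parental line. It lay below the parental array by at least 1.5-fold in each clone, with a log2 difference of −0.83 ± 0.19 (limma adjusted p = 0.0910). EVPL, envoplakin, its partner, was dim at 6.80 to 9.90 in the clones and 6.81 in the parental line. DSP, desmoplakin, the link to keratin, had 164, 159 and 160.0 in GR1, GR3 and GR4 against 209 in the parental line (−0.37 ± 0.11, limma adjusted p = 0.124). JUP, plakoglobin, had 94.2, 150.1 and 134 in these clones against 192 in the parental line, with GR1 lowest. Of the plakophilins, which join the cadherins to desmoplakin, PKP2 had 175 to 178 in the clones and 145 in the parental line (0.28 ± 0.10, limma adjusted p = 0.181). PKP3 had 387 to 431 in the clones and 434 in the parental line, and its log2 difference of −0.07 was 0.19 to 0.23 with median scaling, the authors' deposited values or no normalization. PKP1 had 15.8 to 19.1 in the clones and 16.9 in the parental line.

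The 4 desmosomal cadherins lie together on GRCh38.p14 chromosome 18, from DSC3, which starts at 30989365, to DSG2, which ends at 31549008. DSG2, the desmoglein of simple epithelia, had 589 in GR1, 705 in GR3 and 576 in GR4, against 507 in the parental line, a log2 difference of 0.29 ± 0.17 (limma adjusted p = 0.343). DSC2 had 45.0, 62.5 and 48.1 in these clones and 47.1 in the parental line. DSC3 had 6.99 to 8.44 in the clones and 7.91 in the parental line.

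DSG3, a desmoglein of stratified epithelia, was high in 1 clone. Its signal was 5.47 in GR1, 46.7 in GR3 and 5.75 in GR4, against 7.57 in the parental line. GR3 was a log2 step of 3.06 above the mean of the other clones, and the difference of the 3 clones from the parental line, 0.59 ± 1.52, rests on GR3: it was −0.43 without that clone. DSG3 was the 1 gene of the 38 at least 2-fold above both other clones in GR3, which 0.94% of all genes were, and 0 were 2-fold below both (0.494%). In GR1 and GR4 0 of the 38 stood apart in this way, where the shares of all genes were 0.139% above and 0.175% below for GR1 and 0.121% above and 0.0904% below for GR4. The spot itself stood apart on the GR3 array. There the background column read 71.8 units beside 56.4 for the spot, whereas on the other arrays it read 7.56 to 8.29 beside 12.9 to 17.6. A background reading above the spot occurred for 19 of 24449 probes on GR3 (0.0777%) and for 1 of the 43 probes described here. With the normexp correction, which uses both columns, GR3 was −0.32 from the mean of the other clones. The part of this reading in the DSG3 value was not tested.

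**Figure D4:**
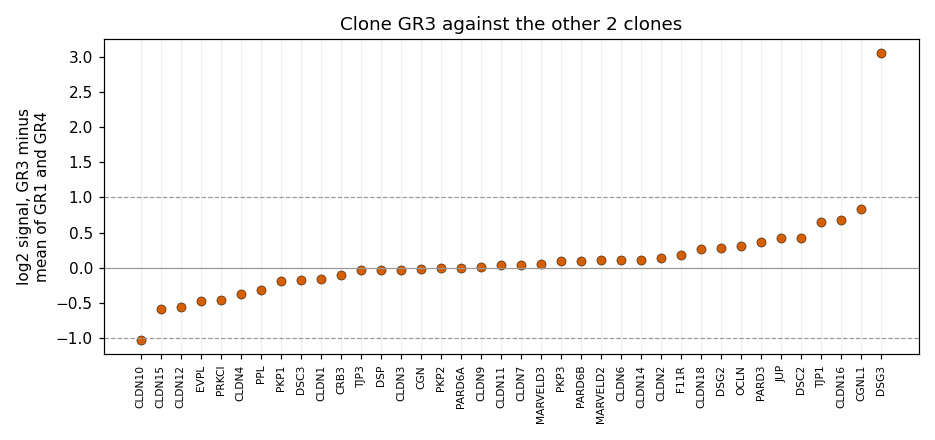
Log2 signal of clone GR3 minus the mean of clones GR1 and GR4 (y axis) for the 38 genes in ascending order, with dashed lines at a 2-fold difference. DSG3 is at 3.06 and CLDN10 at −1.03, and the others lie between −0.59 and 0.84.

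The clones otherwise stayed close to each other. The median range between the highest and the lowest clone was a log2 value of 0.27 over the 38 genes and 0.30 over all genes tested. GR3 was the highest of the clones for 20 of the 38 genes (35.2% of all genes) and the lowest for 13 (39.3% of all genes). After DSG3, the genes with the widest clone range were CGNL1 (1.33) and CLDN10 (1.21).

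Further genes of these structures were taken from lists made with earlier results of these data known. Of 17 further tight junction genes tested, 0 passed limma, with a median log2 difference of −0.04. CLDN8, dim and below the limit on GR4, had a log2 signal of 1.15 in GR1, 1.35 in GR3 and the floor of 0.61 in GR4 against 2.55 in the parental line (adjusted p = 0.0927). Of 13 further polarity genes 0 passed, with a median of −0.21, and of 5 further desmosome genes 0 passed, with a median of −0.21. PERP, a p53-induced desmosome protein, was at least 2-fold lower in all clones, with log2 signals of 8.22 in GR1, 8.75 in GR3 and 8.32 in GR4 against 9.79 in the parental line (log2 difference −1.36 ± 0.26, limma adjusted p = 0.0736). Of 11 adherens junction genes 0 passed, with a median of −0.25. CDH1, E-cadherin, had a log2 difference of −0.30 ± 0.10 (limma adjusted p = 0.169), and NECTIN3, an adhesion molecule of the nectin family, one of 1.04 ± 0.13 (limma adjusted p = 0.0503), with all clones above the parental array. Both were chosen after their values were seen.

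Among 12 transcription factors known to regulate epithelial junction genes, ELF3 fell and 0 rose. Over all genes limma called 1.89% lower and 2.17% higher. ELF3 had log2 signals of 8.87 in GR1, 9.33 in GR3 and 8.93 in GR4, against 11.6 in the parental line (log2 difference −2.54 ± 0.24, limma adjusted p = 0.0444). KLF4, named because it was 2-fold lower in all clones, had a log2 difference of −1.33 ± 0.25 (limma adjusted p = 0.0726). SNAI2, the repressor Slug, had log2 signals of 8.77, 9.91 and 8.95 in GR1, GR3 and GR4 against 7.30 in the parental line. Every clone was at least 2-fold above the parental array, and the log2 difference of 1.91 ± 0.53 did not pass (limma adjusted p = 0.121). The log2 difference was 1.52 for SNAI1 and 0.83 for ZEB1, both dim, and −0.61 for ZEB2. It was −0.76 for OVOL1, −0.14 for OVOL2, −0.83 for KLF5 and 0.02 for TWIST1. For the Grainyhead-like factors it was −1.03 for GRHL1 and 0.38 for GRHL2. Whether any of these factors acts on the junction genes was not tested.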

How the data were processed

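RNA of 4 samples was hybridized with 1 dye, Cy5, to Toray 3D-Gene arrays. Per the file headers, each deposited scanner file holds a median intensity for every spot and for its background, not yet subtracted. Spot and background correlated across probes at 0.93 to 0.96 on the log scale, so that column was used only as an alternative. The authors' deposited table holds intensity after subtraction of the blank-spot mean, scaled to a median of 25 per array, as recomputed here from the scanner files (largest deviation 0.000206 units).

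Here the mean of the middle 90% of 2680 blank spots was subtracted. Signals were quantile normalized, set to at least 1.52 units, the common floor, and log2 transformed. Of 24460 gene probes 11 had a faulty spot. Testing required a signal above the limit in the parental line, or in every clone (22796 probes). Each gene was represented by its brightest probe. Limma 3.58.1 in R 4.3.3 (lmFit, eBayes, two-sided, Benjamini-Hochberg over all tested probes) compared the 3 clones with the parental array, which is assumed to vary like them, on 2 residual degrees of freedom. The eBayes step drew each probe's spread toward that of all tested probes, with 1.62 prior degrees of freedom. Genes whose clones lay close together thus kept a larger standard error, as TJP3 with 0.11 at a clone SD of 0.026. The fit was tested on simulated data. Size rules asked for 1.5-fold or 2-fold differences in every clone and have no test.

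Gene symbols came from the platform annotation, with 2899 updated through RefSeq synonyms. Of the probes, 20236 had 1 symbol, 0 several and 4224 none. The rule for named genes gave values on every array to members past the threshold, 2-fold apart in all clones, above the limit on one side only, or more than 2-fold apart between clones; array values of other members were added after they were seen. Of the further lists it named genes past the threshold or 2-fold apart. CDH1, NECTIN3 and the other transcription factors tested were added outside that rule. The members and lists were chosen with earlier results of these data known. Alternatives changed the background correction, scaling, filter, probe summary, fold and clones.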

Additional observations from a re-analysis of the deposited data

How the results depend on the processing

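TJP3 kept its direction under all 10 alternatives, between −1.98 and −1.16, and passed the threshold in 5 of them. Its value was −1.42 with normexp and −1.97 with no filter, where it did not pass, and −1.98 to −1.95 without 1 clone, which leaves 1 residual degree of freedom. The count of the 38 genes past limma was 0 with normexp, 0 with no filter and 0 without any 1 clone, 2 with the mean of a gene's probes (CRB3 and TJP3) and 4 among probes above the limit on all arrays. Over all genes it was 147 with normexp, 208 with no normalization, 1018 with the deposited values, 0 with no filter (smallest adjusted p = 0.0507, with 5403 genes at an unadjusted p under 0.05), 2127 for probes above the limit on all arrays and 0 without any 1 clone (3560 to 6094 genes at an unadjusted p under 0.05), against 674. Genes 2-fold apart in all clones numbered 319 with normexp, 3083 at 1.5-fold, 382 at 3-fold and 1311 to 1755 without 1 clone, against 1205. Among them 60.3% were higher with median scaling and 65.1% with no normalization, against 50.4%, and 40.1% with normexp. Of the 38 genes, those 2-fold lower numbered 2 with normexp (CLDN4 and TJP3), 6 at 1.5-fold and 1 to 3 without 1 clone (CLDN4 and CRB3 joined TJP3 without GR4), and those 2-fold higher 0 to 1 (CLDN10, without GR3).

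The median over the 38 genes turned to 0.0016 with no normalization, which moved the median of all genes by 0.10, and the difference between both medians was then −0.09, against −0.15. It was −0.17 to −0.16 without 1 clone. Of 380 log2 differences of single genes under the alternatives 24 changed sign, in 13 genes, none of them past the threshold. With median scaling, no normalization and the deposited values these were CLDN1 (0.14, 0.19 and 0.15), PRKCI (0.0337, 0.0763 and 0.0361) and PKP3 (0.19, 0.23 and 0.19). With normexp they were CLDN11 (0.0205), CLDN16 (0.0340), CLDN18 (−0.0189), OCLN (−0.0941), DSC2 (−0.0509), DSG2 (−0.0377), DSG3 (−0.16) and PKP1 (−0.0330), and with the mean of probes CLDN15 (−0.12). Without 1 clone the ranges were −0.0545 to 0.11 for CLDN18, −0.10 to 0.10 for OCLN, −0.0158 to 0.22 for DSC2, −0.13 to 0.00483 for DSC3, −0.43 to 1.11 for DSG3 and −0.0409 to 0.0938 for PKP1. The cause was not tested. No paired analysis was possible because the parental line has 1 array. Dim genes such as CGNL1, CLDN2 and DSC3, with signals under 10 units, lie close to the blank spots. Their standard errors were 0.60, 0.13 and 0.16, so these did not follow the signal alone. The brighter genes TJP1 and CLDN4 had 0.34 and 0.33.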
